A study of Homo sapiens with 32 samples.

Results

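The response of parental HCT116 cells to tunicamycin was examined in cells kept in auxin. HCT116 is an established human colorectal carcinoma line, and the parental line (genotype Tet-OsTIR1-PURO) makes OsTIR1, a plant auxin receptor, when doxycycline is given. The libraries were chosen by their labels, 8 of the 32 in the series, with 4 from stressed wells and 4 from vehicle wells. Stressed wells received 5 µg/mL tunicamycin for 5 h, and vehicle wells received DMSO in its place. Cells of both groups also had 200 ng/mL doxycycline for 24 h, 500 µM auxin (IAA) for 9 h and 250 µM 4-thiouridine (s4U) for 2 h, all counted back from harvest. The comparison therefore contains no cells without those agents. In the series as a whole, auxin was used to deplete a degron-tagged IGF2BP3, an mRNA-binding protein. The parental line carries no tag on IGF2BP3 and serves there as the line in which auxin has no tagged target. Each library came from 1 well of a 24-well plate. The labels do not say that equal replicate numbers share a plate or a day, and the p-values below measure the spread between wells, which may be technical. RNA was profiled by SLAM-seq of mRNA 3′ ends, in which uridines replaced by s4U during the last 2 h are alkylated and then read as C. A read with T-to-C conversions is called a labelled read and is taken to mark RNA made during labelling. Every library of the series had s4U, so T-to-C reads that arise without it were not measured. For each gene 3 measures were compared: all reads (total reads), labelled reads, and the labelled share, which is the percentage of a gene's reads that were labelled. Total and labelled reads are given as CPM, the count scaled to the same sum of reads of its own kind in every library.

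As background, tunicamycin inhibits DPAGT1, the enzyme that starts the lipid-linked sugar on which N-glycans are built, and glycoproteins made without their sugars misfold in the endoplasmic reticulum (ER). The unfolded protein response (UPR) is carried by the ER sensors IRE1, PERK and ATF6. IRE1 splices XBP1 mRNA into the form that encodes an active transcription factor and can cut other ER-bound mRNAs. PERK phosphorylates the initiation factor eIF2α, which lowers translation in general while ATF4 protein is made, and ATF6 is cleaved in the Golgi to release a transcription factor. ATF4 and its target CHOP (DDIT3) drive the integrated stress response, which includes amino acid supply, whereas ATF6 and spliced XBP1 act on genes for ER chaperones, ER-associated degradation (ERAD) and secretory traffic.

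Tunicamycin replicate 1 stood apart from the other 7 libraries. The tunicamycin libraries held 987365, 3322406, 3671783 and 3887942 reads in named genes, and the vehicle libraries 4223553, 2867566, 3773276 and 3560417. Reads of tunicamycin replicate 1 covered 15.1 T positions each, against 22.5 to 23.3 in the others, and 9.97% of its reads fell in 10 genes. For 88.7% of the genes its total reads lay outside the range of the other tunicamycin replicates. The same percentage was 30.9, 30.6 and 49.8% for tunicamycin replicates 2, 3 and 4. Counts of tunicamycin replicate 1 differed from those of its mates by a chi-square of 62.1 to 69.99 per degree of freedom. Every other pair within the groups had 2.25 to 7.47. Results are therefore given with this library, and also without it for each gene below whose call it changed or whose fold it moved by more than 1.5 times. As a check of the cell type, 5 of 8 epithelial markers reached 1 CPM, with summed levels of 1696 to 2248.5 CPM in tunicamycin libraries and 1899 to 2124 CPM in vehicle libraries. Marker levels are CPM of the reads in named genes, without TMM factors. VIL1 and CEACAM5 had no read in the 8 libraries. Of the 5 fibroblast markers COL1A2, COL3A1 and LUM had no read and DCN had 2 in the 8 libraries together, and COL1A1 gave 34.7 to 47.6 CPM with tunicamycin and 20.5 to 28.9 CPM with vehicle. Summed immune and endothelial markers did not exceed 0.545 CPM with tunicamycin or 1.66 CPM with vehicle.

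**Figure D1:**
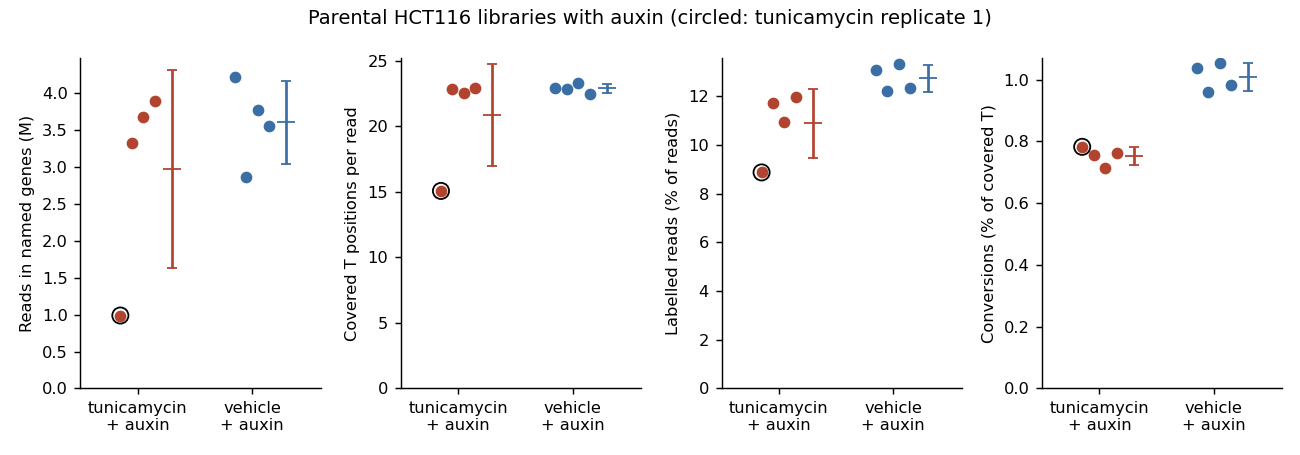
Reads in named genes (M), covered T positions per read, labelled reads (percent of reads) and conversions (percent of covered T positions) in each library, tunicamycin in red and vehicle in blue; points are libraries and the barred lines show mean ± SD (n = 4). Tunicamycin replicate 1, circled, is lowest in the first 3 panels and lies with the other tunicamycin libraries in the last, where all 4 tunicamycin libraries are below all 4 vehicle libraries.

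Tunicamycin changed total reads of about 1 gene in 10. With edgeR's quasi-likelihood test at an adjusted p under 0.05, 1169 of 11186 genes tested passed (10.5%), 812 of them higher (7.26%) and 357 lower (3.19%), and the median log2 fold change over all genes was -0.0025. Without tunicamycin replicate 1, 1039 of 11258 passed (9.23%), 627 higher (5.57%) and 412 lower (3.66%). Both fits shared 478 higher and 271 lower genes. The spread was estimated over all 32 libraries of the series. When only the 8 compared libraries entered the fit, 119 of 10708 genes passed (1.11%), 108 higher (1.01%) and 11 lower (0.103%). With only the 7 left after removing tunicamycin replicate 1 the count was 1010. Leaving out other single libraries moved it between 748 (without vehicle replicate 1 or vehicle replicate 3) and 1922 (without tunicamycin replicate 4). Genes named below that passed in the fit over all libraries but not in the fit of only the 8 are listed as such at the end of each paragraph on total reads. The 4 tunicamycin libraries were all above the 4 vehicle libraries for 5.67% of genes and all below for 5.48%. The largest rises and falls of each measure were taken from genes separated in this way. For them the separation was fixed by the choice.

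**Figure D2:**
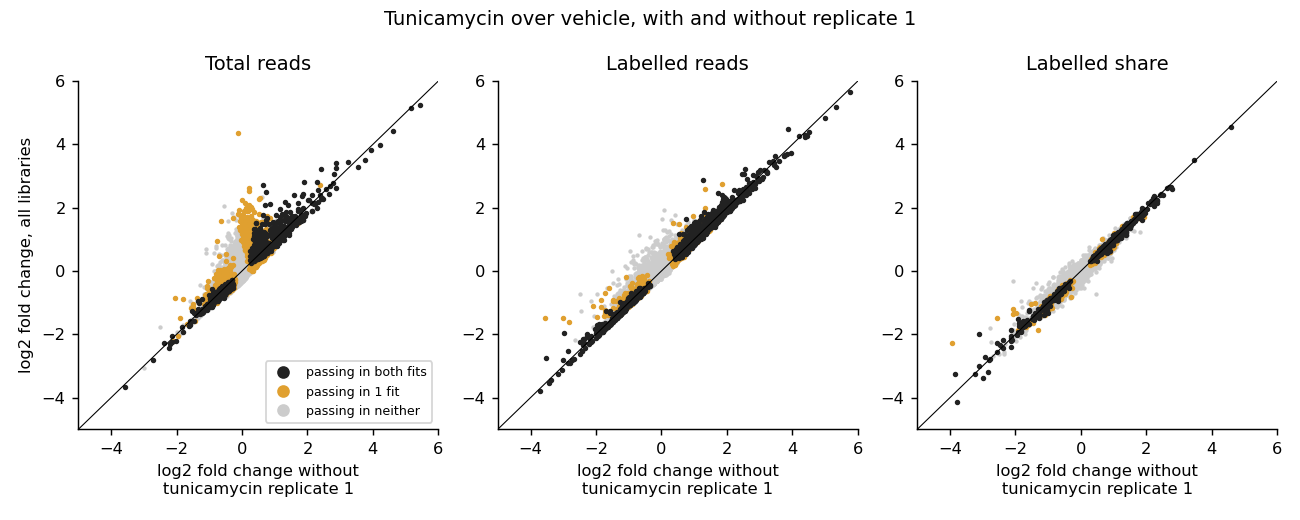
Log2 fold change of each gene, tunicamycin over vehicle, in the fit of all libraries (vertical axis) against the fit without tunicamycin replicate 1 (horizontal axis), for total reads, labelled reads and labelled share; genes with no read of the measure in 1 of the groups are not drawn. Points above the diagonal in the first panel are genes whose total reads were high in tunicamycin replicate 1, many of them passing in 1 fit (orange), whereas the points of the labelled share lie closer to the diagonal.

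Of the UPR sensors and the transcription factors next to them, 8 of 11 tested rose in total reads and 0 fell (median log2 fold change 0.93, 0.51 without tunicamycin replicate 1, 7 higher). XBP1 (gene span chr22:28794560-28800569 on GRCh38.p14, the assembly of all positions given here), the target of IRE1 splicing, had 230.2, 213, 212 and 225 CPM in tunicamycin replicates 1 to 4, against 42.5, 45.1, 52.3 and 58.7 CPM in vehicle replicates 1 to 4 (log2 fold change 2.14 ± 0.11 SE, edgeR adjusted p = 3.40e-15). Its groups were far apart, and tunicamycin replicate 1 was level with its mates. ATF4 (chr22:39520559-39522686), the transcription factor translated when eIF2α is phosphorylated, had 2901, 1693, 1820.2 and 1541 CPM with tunicamycin, against 509, 598, 529.6 and 724 CPM with vehicle (log2 fold change 1.75 ± 0.17 SE, edgeR adjusted p = 1.02e-08). All 4 tunicamycin libraries exceeded all 4 vehicle libraries, tunicamycin replicate 1 most. Without it the log2 fold change was 1.51 ± 0.15, edgeR adjusted p = 3.31e-09. EIF2AK3, which encodes the sensor PERK, had 2.54, 45.3, 26.1 and 40.0 CPM with tunicamycin, against 13.5, 8.14, 7.61 and 3.88 CPM with vehicle (log2 fold change 1.90 ± 0.34 SE, edgeR adjusted p = 2.50e-04). Here tunicamycin replicate 1 lay below every vehicle library while the other tunicamycin libraries lay above them. Leaving it out gave a log2 fold change of 2.13 ± 0.25, edgeR adjusted p = 1.97e-08. ATF6, the sensor that is itself a transcription factor, had a smaller rise (90.0 ± 15.8 CPM with tunicamycin and 57.0 ± 3.93 CPM with vehicle, SD, n = 4 each; log2 fold change 0.63 ± 0.12 SE, edgeR adjusted p = 5.79e-04), and its groups did not overlap. CREB3L2, a relative of ATF6 that is also released by cleavage in the Golgi, rose by a log2 fold change of 1.31 ± 0.16 (edgeR adjusted p = 7.19e-07). MBTPS1 and MBTPS2, the proteases that cleave ATF6, had log2 fold changes of -0.11 and 0.019 and did not pass (edgeR adjusted p = 0.624 and 0.956). ERN1, which encodes IRE1, had too few reads to be tested. In the fit of only the 8 libraries EIF2AK3 and ATF6 did not pass.

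Promoters of XBP1 and of the strongly raised targets HSPA5, HERPUD1 and CHAC1 are printed because each holds a short sequence known to be bound by UPR factors. The windows run from 250 bases before to 50 bases after the annotated start, 5′ to 3′ on the gene's strand, as given by RefSeq on GRCh38.p14, and capitals mark the fixed letters of each match. The windows of DDIT3, ATF4, TRIB3, DNAJB9 and IGF2BP3 held none of the 4 motifs searched, and that of ATF3 held a CARE, described with the others after the sequences.
HSPA5, chr9:125241294-125241593, minus strand: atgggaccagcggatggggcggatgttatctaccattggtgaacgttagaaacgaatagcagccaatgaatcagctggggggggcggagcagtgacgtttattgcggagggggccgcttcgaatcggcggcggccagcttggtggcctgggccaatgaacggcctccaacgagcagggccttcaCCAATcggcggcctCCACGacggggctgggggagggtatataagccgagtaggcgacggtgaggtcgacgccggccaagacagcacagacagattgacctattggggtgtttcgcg
XBP1, chr22:28800520-28800819, minus strand: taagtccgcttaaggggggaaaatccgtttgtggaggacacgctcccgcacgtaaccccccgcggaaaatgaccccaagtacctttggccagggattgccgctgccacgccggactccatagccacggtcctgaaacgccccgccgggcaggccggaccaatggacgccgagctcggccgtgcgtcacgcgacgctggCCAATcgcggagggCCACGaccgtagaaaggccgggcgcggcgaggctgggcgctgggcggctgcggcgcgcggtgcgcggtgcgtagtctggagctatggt
HERPUD1, chr16:56931892-56932191, plus strand: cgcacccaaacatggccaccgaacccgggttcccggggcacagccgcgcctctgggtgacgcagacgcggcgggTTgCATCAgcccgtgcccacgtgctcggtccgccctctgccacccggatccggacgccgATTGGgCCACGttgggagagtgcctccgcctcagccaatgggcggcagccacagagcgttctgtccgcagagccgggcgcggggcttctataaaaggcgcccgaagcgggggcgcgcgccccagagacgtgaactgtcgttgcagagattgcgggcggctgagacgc
CHAC1, chr15:40953221-40953520, plus strand: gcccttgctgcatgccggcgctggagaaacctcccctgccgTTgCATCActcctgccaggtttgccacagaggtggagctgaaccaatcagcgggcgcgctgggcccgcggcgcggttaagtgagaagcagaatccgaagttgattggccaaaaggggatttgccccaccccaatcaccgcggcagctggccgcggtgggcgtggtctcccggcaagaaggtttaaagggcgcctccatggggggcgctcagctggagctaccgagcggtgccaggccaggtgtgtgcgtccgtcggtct

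The capitals in HSPA5 and XBP1 are an ER stress response element (ERSE, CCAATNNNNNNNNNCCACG), the site of ATF6 and XBP1 with NF-Y, which begins 66 bases upstream of the start in HSPA5 and 52 bases upstream in XBP1. HERPUD1 holds an ERSE-II (ATTGG and CCACG with 1 base between them) 117 bases upstream. HERPUD1 also holds, 176 bases upstream, an amino acid response element of the C/EBP-ATF type (CARE, TGATGNAA) read on the opposite strand, and so does CHAC1, 209 bases upstream. The window of ATF3, not printed, holds a CARE on the gene's own strand, 191 bases upstream. Both strands of every RefSeq promoter in the table were searched for these and for the UPR element TGACGTGG (UPRE), which shared bases with an ERSE-II in 1 promoter; no other pair of motifs overlapped. An ERSE was found in 9 of 411 promoters of genes higher in both fits (2.19%), in 0 of 217 of genes lower in both, in 14 of 9237 of genes tested (0.152%) and in 22 of 27305 promoters in all (0.0806%). ERSE-II was found in 5 of 411 promoters of genes higher in both fits (1.22%), against 0.119% of genes tested and 0.0549% of all promoters. The shares for UPRE were 4.62%, 0.964% and 0.795%, and those for CARE 4.14%, 1.56% and 3.67%, in the same order of sets. Among the chaperone genes listed, 7 of 22 promoters held an ERSE (CALR, CANX, CRELD2, FICD, HSP90B1, HSPA5 and SERP1) and 2 an ERSE-II (HYOU1 and SDF2L1). Among the tRNA synthetase genes, 6 of 16 promoters held a CARE (AARS1, CARS1, IARS1, MARS1, NARS1 and TARS1). A match describes the letters of the window and does not show that a factor was bound.

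CHOP and the integrated stress response had the highest median change in total reads of the 25 lists. The lists were chosen with earlier results of these data known, so their ranking only describes them. Over all genes tested 7.26% were higher. Of 20 genes tested, 17 rose and 0 fell, with a median log2 fold change of 1.68 (1.90 without tunicamycin replicate 1, 16 higher). DDIT3 (chr12:57516588-57520517), which encodes CHOP, had 496, 971, 939 and 945 CPM in tunicamycin replicates 1 to 4, against 17.3, 19.7, 21.6 and 29.6 CPM in vehicle replicates 1 to 4 (log2 fold change 5.25 ± 0.21 SE, edgeR adjusted p = 5.53e-18). Replicate 1 was the lowest of the tunicamycin libraries and still far above every vehicle library. CHAC1 (chr15:40953471-40956512), an enzyme that degrades glutathione, had 86.5, 102, 97.9 and 92.1 CPM with tunicamycin, against 4.50, 2.04, 1.27 and 2.49 CPM with vehicle (log2 fold change 5.15 ± 0.27 SE, edgeR adjusted p = 4.64e-15), with the 4 tunicamycin libraries close together. TRIB3, a pseudokinase that binds ATF4 and CHOP, had 103, 298, 259.6 and 292 CPM with tunicamycin, against 39.8, 41.0, 40.3 and 34.6 CPM with vehicle (log2 fold change 2.64 ± 0.20 SE, edgeR adjusted p = 1.92e-11). DDIT4, an inhibitor of mTORC1 signalling, had 49.6, 170.1, 141 and 198 CPM with tunicamycin, against 9.00, 5.77, 10.9 and 9.97 CPM with vehicle (log2 fold change 3.99 ± 0.28 SE, edgeR adjusted p = 9.13e-12). For both genes tunicamycin replicate 1 was the lowest of its group and above every vehicle library. SESN2, a leucine sensor upstream of mTORC1, had 553, 357, 341 and 306 CPM with tunicamycin, against 33.7, 41.0, 33.5 and 35.2 CPM with vehicle (log2 fold change 3.43 ± 0.16 SE, edgeR adjusted p = 9.14e-17), here with tunicamycin replicate 1 highest. ATF3, a stress-induced transcription factor of the same family as ATF4, averaged 34.4 ± 12.2 CPM with tunicamycin and 7.58 ± 1.81 CPM with vehicle (SD, n = 4 each; log2 fold change 2.27 ± 0.25 SE, edgeR adjusted p = 8.57e-08). PPP1R15A (GADD34) recruits the phosphatase that acts on eIF2α and had 24.2, 112, 116 and 117 CPM with tunicamycin, against 27.7, 35.6, 27.9 and 35.2 CPM with vehicle (log2 fold change 1.62 ± 0.22 SE, edgeR adjusted p = 2.74e-06). Tunicamycin replicate 1 lay below all vehicle libraries and its mates lay well above them, so the groups overlapped. Without it the log2 fold change was 1.88 ± 0.11, edgeR adjusted p = 2.70e-16. Among the others, STC2, CEBPB, GDF15, VEGFA and the pro-apoptotic BBC3 rose by log2 fold changes of 2.42, 1.90, 1.74, 1.26 and 1.46 (edgeR adjusted p at most 5.55e-05). TNFRSF10B, the death receptor DR5, did not pass with all libraries (0.58, edgeR adjusted p = 0.0950) and passed without tunicamycin replicate 1 (0.81, edgeR adjusted p = 8.49e-04). XPOT, a tRNA exporter, did not pass (-0.26, edgeR adjusted p = 0.692). PPP1R15A and BBC3 did not pass when only the 8 libraries were fitted.

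**Figure D3:**
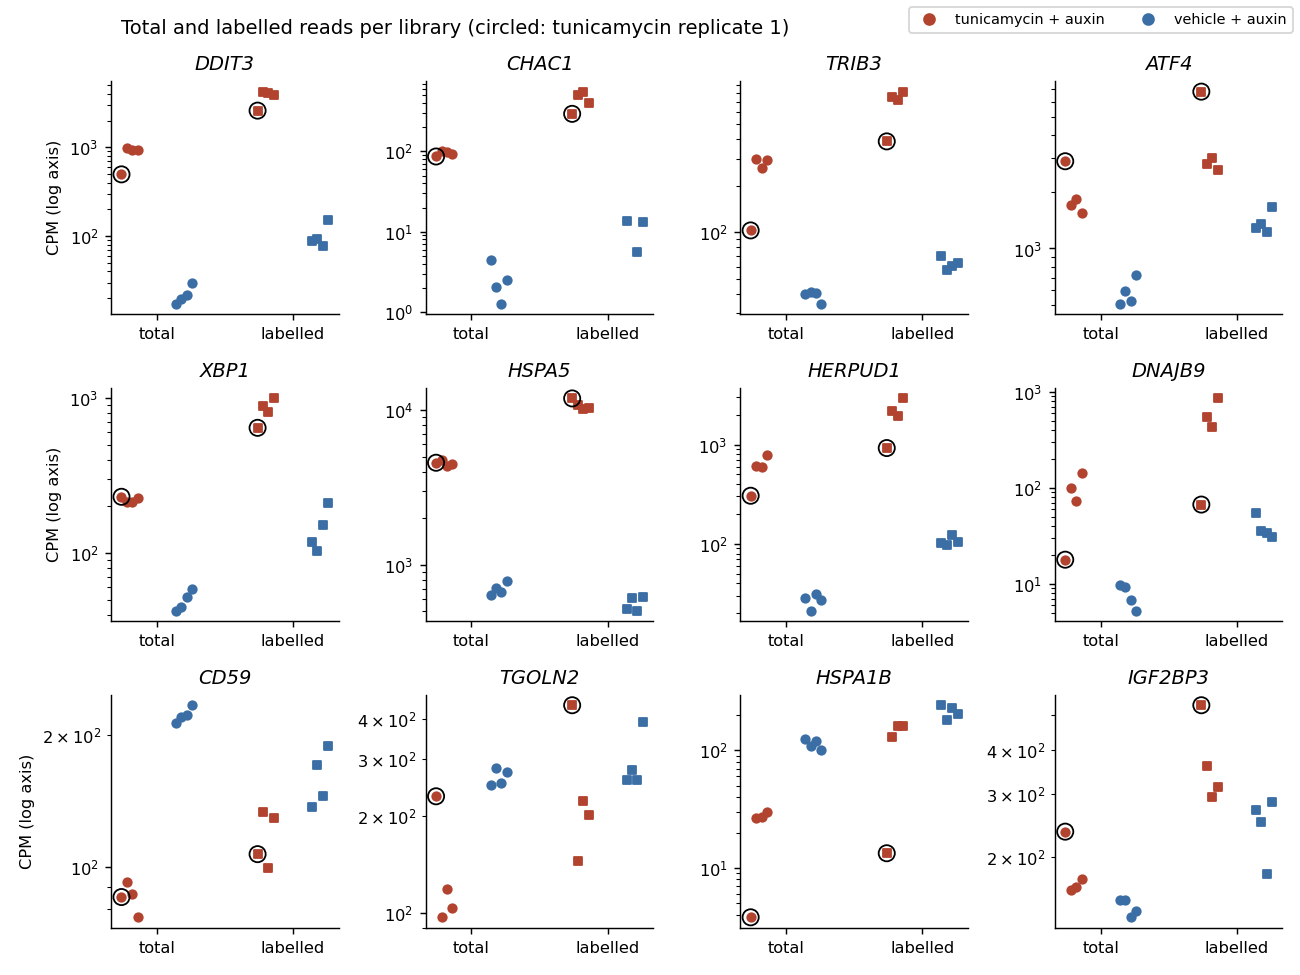
CPM of total reads (circles) and CPM of labelled reads (squares) per library for 12 genes on log axes, tunicamycin in red left of vehicle in blue, with tunicamycin replicate 1 circled; the labelled value of CHAC1 in vehicle replicate 2 was 0 and is not drawn. DDIT3, CHAC1, TRIB3, ATF4, XBP1, HSPA5, HERPUD1 and DNAJB9 show no overlap between groups in either measure, while CD59, TGOLN2 and HSPA1B are lower with tunicamycin in total reads.

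Genes that supply amino acids rose with the integrated stress response. In total reads 10 of 13 amino acid and one-carbon synthesis genes rose and 0 fell (median log2 fold change 0.90). So did 8 of 12 amino acid transporters with 0 lower (median 0.95) and 8 of 20 cytosolic tRNA synthetases with 0 lower (median 0.34). Without tunicamycin replicate 1 the numbers higher were 10, 9 and 9. ASNS, asparagine synthetase, had 163, 354, 328 and 279 CPM with tunicamycin, against 109, 129, 98.9 and 119 CPM with vehicle (log2 fold change 1.32 ± 0.15 SE, edgeR adjusted p = 1.50e-07), with no overlap. PCK2, mitochondrial phosphoenolpyruvate carboxykinase, had the largest rise of the synthesis genes (64.6 ± 17.5 CPM with tunicamycin and 13.6 ± 1.44 CPM with vehicle, SD, n = 4 each; log2 fold change 2.30 ± 0.22 SE, edgeR adjusted p = 4.30e-09). GOT1, the cytosolic aspartate aminotransferase, had 476, 475, 451 and 459 CPM with tunicamycin, against 159, 189, 158 and 177 CPM with vehicle (log2 fold change 1.45 ± 0.095 SE, edgeR adjusted p = 1.03e-12), with all libraries of a group within a narrow range. The serine pathway enzymes PHGDH, PSAT1 and PSPH rose by log2 fold changes of 0.73, 1.14 and 1.48 (0.65, 1.42 and 1.17 without tunicamycin replicate 1), whereas ALDH18A1, which begins proline synthesis, had -0.32 and did not pass (edgeR adjusted p = 0.531). SLC7A11, the cystine importer, had 1288, 423, 387 and 446 CPM with tunicamycin, against 116, 108, 119 and 121 CPM with vehicle (log2 fold change 2.44 ± 0.23 SE, edgeR adjusted p = 3.09e-09). Tunicamycin replicate 1 was far above its mates, and without it the log2 fold change was 1.85 ± 0.084, edgeR adjusted p = 2.15e-20. SLC6A9, a glycine transporter, and SLC38A2, a neutral amino acid transporter, rose by 2.40 ± 0.26 and 1.56 ± 0.14 (edgeR adjusted p = 4.13e-08 and 1.72e-09). WARS1, tryptophanyl-tRNA synthetase, averaged 271 ± 58.6 CPM with tunicamycin and 108 ± 10.3 CPM with vehicle (SD, n = 4 each; log2 fold change 1.31 ± 0.13 SE, edgeR adjusted p = 1.58e-08). CARS1, GARS1, AARS1 and SARS1 rose by 1.56, 1.16, 1.13 and 1.12 (1.16, 0.94, 1.14 and 0.76 without tunicamycin replicate 1). EPRS1, KARS1, QARS1 and TARS1 had log2 fold changes between -0.20 and 0.20 and did not pass. With only the 8 libraries in the fit, PHGDH, PSAT1, CARS1 and SARS1 did not pass.

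ER chaperones rose as a broad group: 18 of 24 tested were higher in total reads and 1, SDF2, was lower (median log2 fold change 1.20). Without tunicamycin replicate 1 the counts were 18 and 0 (median 0.96), SDF2 having -0.71 with all libraries (edgeR adjusted p = 0.0490) and -0.51 without it (edgeR adjusted p = 0.0564). HSPA5 (chr9:125234853-125241343), the ER chaperone BiP that binds the sensors in unstressed cells, had 4557, 4763, 4357 and 4485 CPM in tunicamycin replicates 1 to 4, against 634, 712, 669 and 785 CPM in vehicle replicates 1 to 4 (log2 fold change 2.70 ± 0.11 SE, edgeR adjusted p = 1.37e-17). The values of each group were close together, and removing tunicamycin replicate 1 left the log2 fold change at 2.70. DNAJB9 (ERdj4), a co-chaperone of BiP, had 17.8, 99.8, 72.4 and 141 CPM with tunicamycin, against 9.67, 9.16, 6.85 and 5.26 CPM with vehicle (log2 fold change 3.49 ± 0.35 SE, edgeR adjusted p = 1.56e-08). Tunicamycin replicate 1 was far below its mates but above the vehicle libraries, and without it the log2 fold change was 3.75. SDF2L1 (chr22:21642302-21644299), a partner of ER DnaJ proteins, had 3891, 967, 1017 and 888 CPM with tunicamycin, against 168, 196, 167 and 188 CPM with vehicle (log2 fold change 3.23 ± 0.32 SE, edgeR adjusted p = 1.94e-08). Here too tunicamycin replicate 1 was far above its mates, and without it the log2 fold change was 2.42 ± 0.16, edgeR adjusted p = 4.74e-12. FICD, which adds AMP to BiP, showed the same pattern at lower levels, with 131, 44.7, 32.4 and 40.5 CPM with tunicamycin, against 6.97, 5.09, 4.06 and 4.98 CPM with vehicle (log2 fold change 3.40 ± 0.33, and 2.87 without tunicamycin replicate 1). HYOU1, the nucleotide exchange factor of BiP, had 178, 599, 563 and 518 CPM with tunicamycin, against 149.6, 155, 139 and 171 CPM with vehicle (log2 fold change 1.61 ± 0.20 SE, edgeR adjusted p = 5.27e-07). CRELD2, an ER protein linked to folding, rose by 1.79 ± 0.13 (edgeR adjusted p = 7.71e-12). In the fit of only the 8 libraries SDF2 and HYOU1 did not pass.

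For the luminal chaperones CALR and HSP90B1, tunicamycin replicate 1 went against its mates. CALR, the lectin chaperone calreticulin, had 254, 1725, 1584 and 1316 CPM with tunicamycin, against 848, 921, 786 and 782 CPM with vehicle. It did not pass with all libraries (log2 fold change 0.56 ± 0.26 SE, edgeR adjusted p = 0.177) and passed without replicate 1 (0.89 ± 0.092, edgeR adjusted p = 1.20e-09). HSP90B1, the ER form of HSP90, had 102, 845, 599 and 1052 CPM with tunicamycin, against 506, 407, 537 and 292 CPM with vehicle. It passed in neither fit (log2 fold change 0.59 ± 0.42, edgeR adjusted p = 0.387, and 0.93, edgeR adjusted p = 0.133). In both genes replicate 1 was below all vehicle libraries and its 3 mates were above all of them. Of the protein disulfide isomerases and ER oxidases 7 of 17 rose in total reads and 0 fell (median 0.45, and 9 higher without replicate 1). ERO1B, an oxidase that recharges the isomerases, had 21.6, 22.5, 17.8 and 24.8 CPM with tunicamycin, against 3.15, 3.05, 2.54 and 3.88 CPM with vehicle (log2 fold change 2.77 ± 0.25 SE, edgeR adjusted p = 1.78e-09), with no overlap between groups. Its paralogue ERO1A did not pass (log2 fold change -0.17, edgeR adjusted p = 0.574). PDIA4 and ERP44, 2 proteins of the isomerase family, rose by 1.20 ± 0.12 and 1.12 ± 0.13. PDIA6 passed without replicate 1 and not with it (log2 fold changes 0.60 and 0.30).

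Part of the degradation and traffic genes rose. In total reads 12 of 29 ERAD genes rose and 0 fell (median log2 fold change 0.42), with 11 higher and a median of 0.15 without tunicamycin replicate 1. HERPUD1 (chr16:56932142-56944864), which organises the ERAD ligase complex, had 305, 610.3, 599.6 and 788 CPM in tunicamycin replicates 1 to 4, against 28.8, 21.4, 31.2 and 27.1 CPM in vehicle replicates 1 to 4 (log2 fold change 4.41 ± 0.20 SE, edgeR adjusted p = 9.14e-17). Replicate 1 was the lowest of the tunicamycin libraries, and no vehicle library came near it. SEL1L, the adaptor of the ERAD ligase SYVN1, had 165, 246, 212 and 277 CPM with tunicamycin, against 54.4, 52.2, 49.2 and 52.6 CPM with vehicle (log2 fold change 2.12 ± 0.13 SE, edgeR adjusted p = 1.47e-13). SYVN1 itself had 33.1, 179, 159.8 and 226 CPM with tunicamycin, against 43.6, 40.4, 36.3 and 35.2 CPM with vehicle (log2 fold change 1.99 ± 0.31 SE, edgeR adjusted p = 3.27e-05). Replicate 1 lay below every vehicle library and its mates far above. EDEM1, a mannosidase-like protein that hands glycoproteins to ERAD, rose by 1.80 ± 0.26 and OS9, an ERAD lectin, by 0.87 ± 0.17 (1.92 and 0.56 without replicate 1). NPLOC4 and UFD1, the cofactors of the extraction ATPase p97, had log2 fold changes of -0.25 and -0.021 and did not pass. SYVN1 and OS9 did not pass when only the 8 libraries were fitted.

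Of the translocon, signal recognition particle and signal peptidase genes 8 of 22 rose in total reads and 0 fell (median 0.21), and 11 were higher without tunicamycin replicate 1. SSR4, a subunit of the translocon-associated TRAP complex, had 537, 113, 119.8 and 90.1 CPM with tunicamycin, against 74.7, 75.6, 79.6 and 94.2 CPM with vehicle (log2 fold change 1.33 ± 0.32 SE, edgeR adjusted p = 0.00747). Tunicamycin replicate 1 was far above every other library and the groups overlapped; without it the log2 fold change was 0.41 ± 0.13, edgeR adjusted p = 0.0335. SSR1 of the same complex rose by 1.13 ± 0.15 and the channel subunit SEC61A1 by 0.82 ± 0.15 (0.78 and 0.54 without tunicamycin replicate 1). The other channel subunits did not pass in total reads: SEC61B had 162 ± 79.7 CPM with tunicamycin and 188 ± 23.1 CPM with vehicle (SD, n = 4 each; log2 fold change -0.17, edgeR adjusted p = 0.728) and SEC61G had 274 ± 161 CPM with tunicamycin and 302 ± 26.0 CPM with vehicle (SD, n = 4 each; -0.11, edgeR adjusted p = 0.868). ER-to-Golgi transport had 12 of 32 genes higher and 0 lower (median 0.40), and 17 higher without replicate 1. The COPII coat subunits SEC24D and SEC31A rose by 1.58 ± 0.18 and 1.55 ± 0.28 (1.62 and 0.95 without replicate 1), whereas SEC24B, SEC24C and SEC13 of the same coat had log2 fold changes of -0.20, 0.0022 and 0.073 and did not pass. With only the 8 libraries in the fit, SSR4, SSR1, SEC61A1 and SEC31A did not pass. The numbers higher in that fit were 12 of the integrated stress response, 8 of the chaperones, 6 of ERAD, 5 of amino acid synthesis, 3 of the sensors and factors, 1 of ER-to-Golgi transport and 0 of the translocon list.

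**Figure D4:**
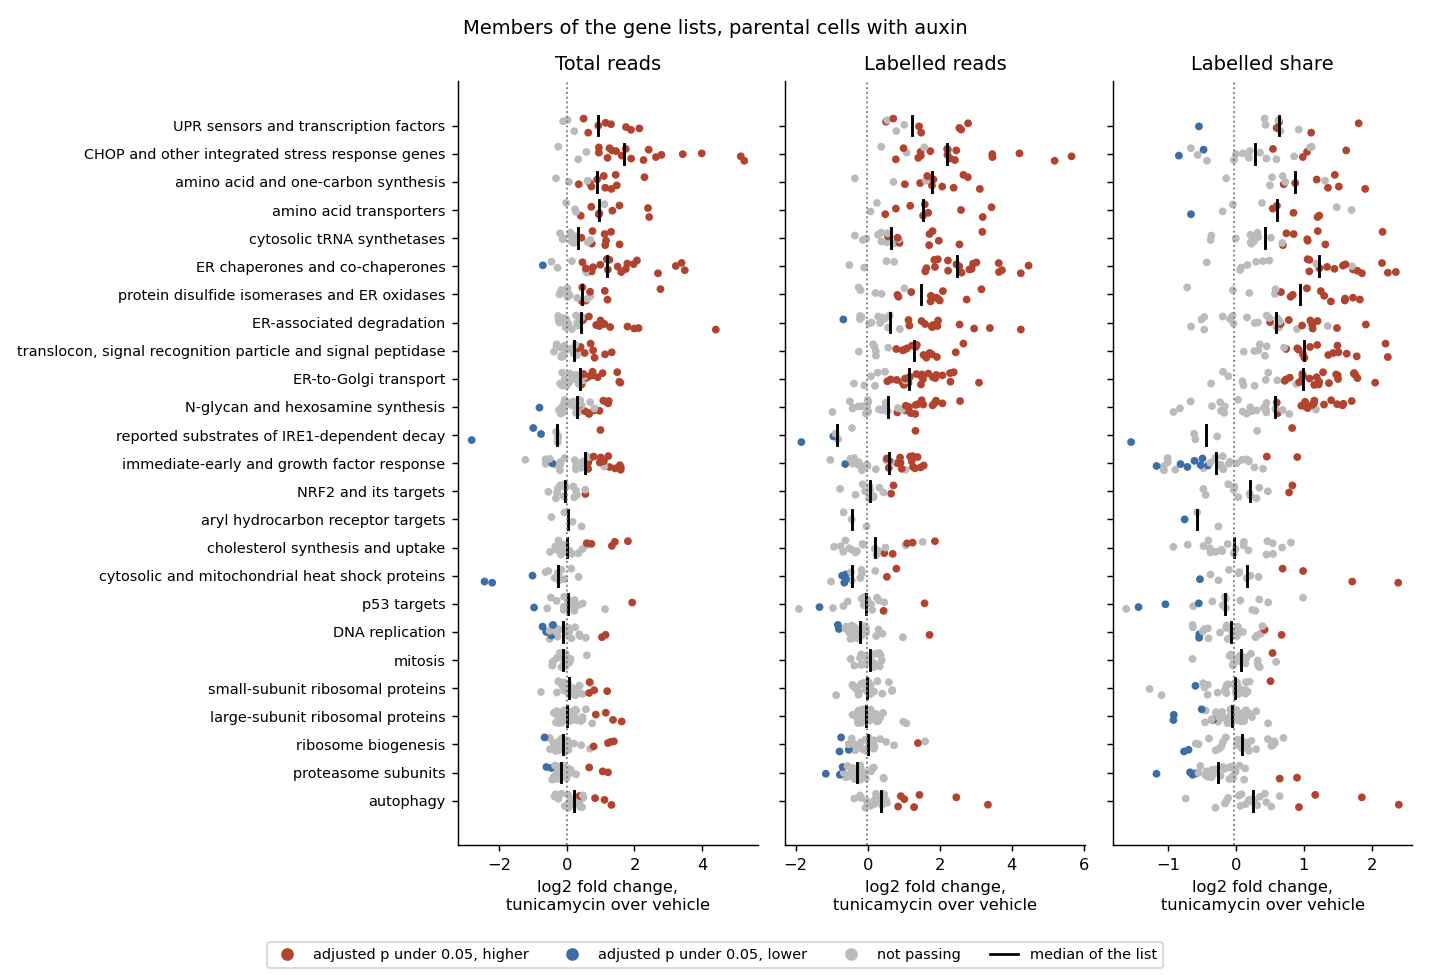
Log2 fold change, tunicamycin over vehicle, of every tested member of the 25 gene lists for total reads, labelled reads and labelled share; red points passed higher and blue points lower at an edgeR adjusted p under 0.05, grey points did not pass, the black bar is the median of the list and the dotted line the median over all genes tested. The medians of the integrated stress response (1.68 in total reads) and ER chaperones (2.47 in labelled reads) lie farthest to the right in those panels, and those of the translocon and ER-to-Golgi lists lie near 1 in the labelled share.

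N-glycan synthesis, the pathway that tunicamycin inhibits, rose in part. DPAGT1, the target itself, had 35.6, 46.5, 52.4 and 46.0 CPM with tunicamycin, against 29.7, 21.7, 26.9 and 38.5 CPM with vehicle (log2 fold change 0.66 ± 0.17 SE, edgeR adjusted p = 0.0104), with overlap between the groups. Of 37 N-glycan and hexosamine synthesis genes tested, 10 rose and 1 fell in total reads (median log2 fold change 0.30); without tunicamycin replicate 1, 11 rose and 1 fell (median 0.19). GFPT1, the rate-limiting enzyme of hexosamine synthesis, had 182, 165, 148 and 188 CPM with tunicamycin, against 74.2, 67.8, 80.7 and 65.6 CPM with vehicle (log2 fold change 1.24 ± 0.10 SE, edgeR adjusted p = 2.00e-10), with no overlap. PGM3, a later enzyme of the same pathway, and UGGT1, which re-glucosylates misfolded glycoproteins, rose by 1.08 ± 0.12 and 1.16 ± 0.14. DOLK, which makes dolichol phosphate, was the gene that fell (-0.81 ± 0.23, edgeR adjusted p = 0.0226). In the fit of only the 8 libraries DPAGT1, UGGT1 and DOLK did not pass.

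Among the genes that fell in total reads were cytosolic heat shock proteins and a few secreted or membrane proteins. Of 13 cytosolic and mitochondrial heat shock genes 3 fell and 0 rose (median log2 fold change -0.27), and without tunicamycin replicate 1 3 fell and 1 rose. HSPA8, the constitutive cytosolic HSP70, had 6.36, 47.2, 29.4 and 61.3 CPM with tunicamycin, against 239, 198, 276 and 145 CPM with vehicle (log2 fold change -2.44 ± 0.64 SE, edgeR adjusted p = 0.0135). All tunicamycin libraries were below all vehicle libraries, with replicate 1 lowest. HSPA1B, an inducible HSP70, had 3.81, 26.8, 27.2 and 30.0 CPM with tunicamycin, against 125, 109.9, 120.5 and 101 CPM with vehicle (log2 fold change -2.21 ± 0.25 SE, edgeR adjusted p = 9.39e-08). HSPA1A is a nearly identical copy, so how the reads of this pair were divided is uncertain. DNAJA1, a co-chaperone of HSP70, passed with all libraries (log2 fold change -1.02 ± 0.32, edgeR adjusted p = 0.0414) and not without tunicamycin replicate 1 (-0.75, edgeR adjusted p = 0.0982). CD59 (chr11:33703010-33736479), a lipid-anchored inhibitor of complement, had 85.2, 92.2, 86.5 and 76.6 CPM in tunicamycin replicates 1 to 4, against 214, 221, 223 and 235 CPM in vehicle replicates 1 to 4 (log2 fold change -1.39 ± 0.10 SE, edgeR adjusted p = 3.20e-12). The groups were well separated, and the value without replicate 1 was the same, -1.39. Among mRNAs reported as substrates of IRE1-dependent decay 3 of 8 fell and 1 rose (median -0.29), and 4 fell without replicate 1. TGOLN2, a trans-Golgi membrane protein, had 230.2, 97.0, 118 and 104 CPM with tunicamycin, against 249, 282, 252 and 274 CPM with vehicle (log2 fold change -1.0 ± 0.17 SE, edgeR adjusted p = 1.47e-04). Replicate 1 lay near the vehicle libraries, and without it the log2 fold change was -1.31 ± 0.11, edgeR adjusted p = 1.29e-11. PMP22, a myelin membrane protein, averaged 31.0 ± 4.37 CPM with tunicamycin and 53.3 ± 6.73 CPM with vehicle (SD, n = 4 each; log2 fold change -0.77 ± 0.14 SE, edgeR adjusted p = 3.86e-04). DGAT2, an ER enzyme of triglyceride synthesis, had 0, 0, 0.832 and 1.75 CPM with tunicamycin, against 6.30, 3.39, 8.37 and 6.09 CPM with vehicle (log2 fold change -2.82 ± 0.65 SE, edgeR adjusted p = 0.00395), a change that rests on few reads. BLOC1S1, a substrate commonly used to report this decay, did not pass (log2 fold change -0.27, edgeR adjusted p = 0.283). In these bulk libraries fewer reads of a gene cannot be told apart from fewer cells that express it. Other large falls included the transcription factors HOXC13 and MNX1, with log2 fold changes of -1.76 and -1.33, the epithelial linker protein EPPK1 (-1.74), SCAMP5 (-1.35), FGFBP1 (-1.34) and LRFN1 (-1.33). HSPA8, DNAJA1, TGOLN2, PMP22, DGAT2, MNX1 and FGFBP1 did not pass when only the 8 libraries were fitted.

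The remaining lists were mixed. In the immediate-early and growth factor list 14 of 32 higher and 1 lower were called in total reads (median log2 fold change 0.55). EGR1, a growth-induced transcription factor, had 2838, 1933, 1704 and 1944 CPM with tunicamycin, against 898, 856, 917 and 837 CPM with vehicle (log2 fold change 1.26 ± 0.12 SE, edgeR adjusted p = 2.81e-09). IER3 had 14187, 6333, 5654 and 4823 CPM with tunicamycin, against 2614, 2748, 2536 and 2540.3 CPM with vehicle (log2 fold change 1.57 ± 0.22 SE, edgeR adjusted p = 4.35e-06, and 1.10 without tunicamycin replicate 1), with no overlap for either. FOS, the classic member of this list, did not pass (-0.21, edgeR adjusted p = 0.621), nor did MYC (-0.20, edgeR adjusted p = 0.707). Counts near the background were found for NRF2 targets (1 of 14 higher and 0 lower, median -0.048), where GCLC, which makes a glutathione precursor, was the gene that rose (0.55). The same holds for aryl hydrocarbon receptor targets (0 of 4 higher and 0 lower, median 0.047). Indoles such as auxin can engage that pathway, but both groups had auxin, so its own effect is not measured here. Counts were also near the background for p53 targets (1 of 18 higher and 1 lower, median 0.034), with GADD45A at 1.93 ± 0.16 and CDKN1A at 0.22, the last of which did not pass. Cholesterol synthesis had 5 of 22 higher and 0 lower (median -0.0064), with the lipid carrier STARD4 at 1.42 ± 0.31. Autophagy had 4 of 26 higher and 0 lower (median 0.22), with the phosphoinositide effector WIPI1 at 1.32 ± 0.17 and MAP1LC3B (LC3B) at 0.83 ± 0.20. DNA replication had 2 of 25 higher and 4 lower (median -0.11), with the origin-licensing factor CDC6 at 1.15 ± 0.10, and mitosis 0 of 20 higher and 0 lower (median -0.10). With tunicamycin replicate 1 left out the counts were 15 higher and 0 lower for the immediate-early list, 2 and 2 for p53 targets, 6 and 0 for cholesterol synthesis, 6 and 0 for autophagy and 1 and 3 for DNA replication, and those of the other 3 lists did not change. With only the 8 libraries in the fit, IER3, GCLC and MAP1LC3B did not pass.

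Growth-related lists held the clearest cases in which tunicamycin replicate 1 decided a call. Small-subunit ribosomal proteins had 4 of 32 higher and 0 lower, large-subunit ribosomal proteins 4 of 46 higher and 0 lower, ribosome biogenesis 4 of 26 higher and 1 lower and proteasome subunits 3 of 30 higher and 2 lower (medians 0.050, -0.0059, -0.12 and -0.19). Without replicate 1 the numbers higher were 0, 2, 0 and 0, and the numbers lower 0, 0, 1 and 1. RPL8, a large-subunit protein, had 16657, 2064, 2257 and 1995 CPM with tunicamycin, against 1776, 1893, 1645 and 2127 CPM with vehicle. Its log2 fold change was 1.62 with all libraries (edgeR adjusted p = 0.0109) and 0.18 without replicate 1 (edgeR adjusted p = 0.575). PES1, a ribosome biogenesis factor, had 918, 125, 132 and 96.3 CPM with tunicamycin, against 117, 123, 105 and 116 CPM with vehicle (log2 fold change 1.39 with and 0.030 without replicate 1). PSMC3, a proteasome ATPase, had 1593, 231, 264 and 248 CPM with tunicamycin, against 213, 254, 227 and 287 CPM with vehicle (1.22 and 0.017). RPS9 and MCM5 behaved likewise, at 4762 and 1011 CPM in replicate 1 and at most 1161 and 216 CPM in the other 7 libraries. Their log2 fold changes were 1.19 and 1.04 with all libraries (edgeR adjusted p = 0.0118 and 0.0484). Without replicate 1 they were 0.29 and 0.025 (edgeR adjusted p = 0.209 and 0.956). In each of these genes the high value was that of 1 library. In the fit of only the 8 libraries RPL8, PES1, PSMC3, RPS9 and MCM5 did not pass.

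Less of the RNA was labelled under tunicamycin. Labelled reads made up 8.88, 11.7, 11 and 12% of reads in tunicamycin replicates 1 to 4, against 13.1, 12.2, 13.3 and 12.3% in vehicle replicates 1 to 4, the 95% Wilson interval of the shallowest library being 8.82% to 8.93% (counting error only). The means were 10.9 ± 1.41% with tunicamycin and 12.7 ± 0.561% with vehicle (SD, n = 4 each). The difference was -1.86 percentage points (2-sided exact permutation p = 0.0286, the smallest that 4 against 4 libraries allow, and the same adjusted over the 2 library-wide tests). Without replicate 1 the difference was -1.18 points (exact permutation p = 0.0571, the smallest that 3 against 4 allow). Counted per covered T position, conversions were 0.782, 0.756, 0.712 and 0.762% with tunicamycin, against 1.04, 0.960, 1.05 and 0.982% with vehicle (difference -0.255 points, exact permutation p = 0.0286; -0.265 points without replicate 1). Neither measure overlapped between groups. Less uptake of s4U and less new RNA cannot be told apart in these data.

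Relative to the other labelled reads of a library, labelled reads of 1020 of 8980 genes changed (11.4%), 710 higher (7.91%) and 310 lower (3.45%), with a median log2 fold change of -0.017 over all genes. Without tunicamycin replicate 1 the counts were 1128 of 9177 (12.3%), 771 higher (8.4%) and 357 lower (3.89%). The 4 tunicamycin libraries were all above the 4 vehicle libraries in labelled reads for 6.7% of genes and all below for 6.28%. Scaling by total reads, which keeps the library-wide loss of label, moved the median to -0.31 and gave 1711 genes, 452 higher and 1259 lower, and the fit of only the 8 libraries gave 485. DDIT3 labelled reads were 2591, 4241, 4057 and 3894 labelled CPM with tunicamycin, against 89.1, 92.4, 77.2 and 150.2 labelled CPM with vehicle (log2 fold change 5.19 ± 0.18 SE, edgeR adjusted p = 1.70e-35), with a wide gap between groups. Those of HSPA5 were 11861, 10731, 10158 and 10304 labelled CPM with tunicamycin, against 517, 614, 506 and 618 labelled CPM with vehicle (log2 fold change 4.25 ± 0.13 SE, edgeR adjusted p = 5.36e-41), a larger log2 fold change than the 2.70 of its total reads. CHAC1 had 294, 502, 555 and 399 labelled CPM with tunicamycin, against 13.7, 0, 5.65 and 13.1 labelled CPM with vehicle, including 1 vehicle library with no labelled read (log2 fold change 5.66 ± 0.28 SE, edgeR adjusted p = 5.05e-28). In labelled reads 19 of 23 ER chaperones rose (median 2.47), 11 of 16 isomerases and oxidases (median 1.48), 16 of 22 translocon genes (median 1.28), 25 of 32 ER-to-Golgi genes (median 1.15) and 16 of 37 N-glycan genes (median 0.56), with 0 lower in each. These medians stayed above 0 when labelled reads were scaled by total reads (2.17, 1.18, 0.98, 0.85 and 0.27 in that order). ERAD had 13 of 29 higher and 1 lower, and 16 and 1 without replicate 1. CALR and HSP90B1, without a call in total reads of all libraries, rose in labelled reads. CALR had 267, 1896, 1851 and 1555 labelled CPM with tunicamycin, against 324, 367, 294 and 266 labelled CPM with vehicle (log2 fold change 2.24 ± 0.26 SE, edgeR adjusted p = 1.71e-07). HSP90B1 had 200.3, 1464, 1194 and 1797 labelled CPM with tunicamycin, against 242, 182, 231 and 150.2 labelled CPM with vehicle (log2 fold change 2.61 ± 0.38 SE, edgeR adjusted p = 1.21e-05). In both, replicate 1 lay among the vehicle values and its mates far above. The integrated stress response (17 of 20 higher, median 2.21), amino acid synthesis (10 of 13, median 1.79), transporters (9 of 11, median 1.54) and tRNA synthetases (9 of 20, median 0.66) also rose, with 0 lower in each. Without replicate 1 the numbers higher in labelled reads were 19, 12, 16, 25 and 18 for the 5 ER groups in the order above, with medians of 2.50, 1.50, 1.30, 1.22 and 0.64.

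Among the genes that fell in labelled reads, SNX22, a sorting nexin, had 0 labelled reads in all 4 tunicamycin libraries, against 32.6, 16.3, 15.1 and 32.7 labelled CPM with vehicle, and TMEM52 had 0 against 15.4, 27.2, 18.8 and 15.2 labelled CPM. Set against a floor of 3 reads over the tunicamycin group, the vehicle levels, pooled and without TMM factors, make these at least 11.7-fold lower and at least 8.75-fold lower (edgeR adjusted p = 6.19e-04 and 1.70e-04). BMP1, a secreted protease that matures procollagen, had 0, 2.79, 0 and 2.31 labelled CPM with tunicamycin, against 30.8, 29.9, 20.7 and 21.8 labelled CPM with vehicle (log2 fold change -3.78 ± 0.84 SE, edgeR adjusted p = 5.82e-04). Its total reads did not pass (89.0, 23.7, 23.3 and 18.8 CPM with tunicamycin, against 24.5, 20, 26.1 and 29.4 CPM with vehicle; log2 fold change 0.38, edgeR adjusted p = 0.431), being high in replicate 1 alone. SCARA3, listed as a substrate of IRE1-dependent decay, fell in labelled reads, with 53.4, 13.9, 32.2 and 11.5 labelled CPM with tunicamycin, against 84.0, 70.6, 73.4 and 84.9 labelled CPM with vehicle (log2 fold change -1.84 ± 0.38 SE, edgeR adjusted p = 2.09e-04), and did not pass in total reads (-0.27, edgeR adjusted p = 0.311), where it passed without replicate 1 (-0.45, edgeR adjusted p = 0.0407). Of 13 cytosolic and mitochondrial heat shock genes 4 fell and 2 rose in labelled reads (median -0.44), and with replicate 1 left out 3 fell and 1 rose. Among those that fell, HSP90AA1 and HSPB1 had log2 fold changes of -0.60 and -0.61 (edgeR adjusted p = 7.83e-05 and 0.00840) and DNAJA1 had -0.71 (edgeR adjusted p = 0.0477), the call of DNAJA1 being lost without replicate 1 (-0.57, edgeR adjusted p = 0.0654). HSPA8 labelled reads did not pass (log2 fold change -1.02, edgeR adjusted p = 0.257), and those of HSPA1B passed with all libraries (-0.65, edgeR adjusted p = 0.0440) but not without replicate 1 (-0.51, edgeR adjusted p = 0.0723). CD59, which fell in total reads, did not pass in labelled reads (117 ± 16.8 labelled CPM with tunicamycin and 161 ± 24.1 labelled CPM with vehicle, SD, n = 4 each; -0.42, edgeR adjusted p = 0.190).

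The labelled share of a gene compares its labelled reads with its other reads, relative to the typical gene. New RNA can also give reads without a conversion, so the other reads are not old RNA alone. Conversions were fewer in all tunicamycin libraries. How far this lowers the share of genes whose reads are mostly labelled, beyond that of the typical gene, was not tested. The labelled share changed for 727 of 8980 genes (8.1%), 485 higher (5.4%) and 242 lower (2.69%), with a median log2 ratio change of -0.028. Without tunicamycin replicate 1 it changed for 686 of 9177 (7.48%), 496 higher (5.4%) and 190 lower (2.07%), and 446 were higher and 167 lower in both. Kept on the scale of the library, without centring on the typical gene, the median was -0.38 and 1536 genes changed, 195 higher and 1341 lower. The 4 tunicamycin shares were all above the 4 vehicle shares for 2.12% of genes and all below for 16.7%. HSPA5 had shares of 24.8, 24.6, 24.1 and 24.9% in tunicamycin replicates 1 to 4, against 10.7, 10.8, 10.2 and 10.0% in vehicle replicates 1 to 4 (log2 ratio change 1.86 ± 0.077 SE, edgeR adjusted p = 2.74e-41). The 4 values of each group differed by less than 1 point, replicate 1 included. HSP90B1 had 18.8, 18.9, 20.6 and 18.5% with tunicamycin, against 6.27, 5.58, 5.81 and 6.55% with vehicle (2.24 ± 0.13, edgeR adjusted p = 3.07e-29). CALR had 10.0, 12, 12.1 and 12.8% with tunicamycin, against 5.01, 4.97, 5.03 and 4.32% with vehicle (1.79 ± 0.11, edgeR adjusted p = 2.58e-28). Here replicate 1, low in the total reads of both genes, lay with its mates for HSP90B1 and just below them for CALR, above every vehicle library. Of the ER chaperones 14 of 23 had a higher share (median 1.23), of the isomerases and oxidases 11 of 16 (median 0.94), of the translocon genes 15 of 22 (median 1.00) and of the ER-to-Golgi genes 22 of 32 (median 0.98), with 0 lower in each. Without centring these medians were 0.87, 0.59, 0.63 and 0.62, and without replicate 1 the numbers higher were 16, 11, 15 and 22. SEC61B, which did not pass in total reads, had shares of 10.5, 17.5, 16.1 and 17.5% with tunicamycin, against 6.49, 5.09, 4.39 and 4.50% with vehicle (2.24 ± 0.20, edgeR adjusted p = 6.27e-17). SEC61G averaged 18.2 ± 10.1% with tunicamycin and 5.44 ± 0.812% with vehicle (SD, n = 4 each; 1.78 ± 0.18, edgeR adjusted p = 2.36e-13). KDELR2 and LMAN1, receptors of ER-to-Golgi traffic without a call in total reads, gained 1.51 ± 0.19 and 1.79 ± 0.24 (edgeR adjusted p = 4.88e-10 and 5.33e-09).

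Most of the strongest integrated stress response genes did not gain in labelled share. In that list 4 of 20 had a higher and 2 a lower share. The median was 0.28 and became -0.079 without centring. DDIT3 had shares of 49.7, 47.7, 44.7 and 44.7% with tunicamycin, against 67.5, 58.6, 48.2 and 64.5% with vehicle. It did not pass (log2 ratio change -0.43 ± 0.18, edgeR adjusted p = 0.156), although it passed without centring and without vehicle replicate 3. Most of its reads were labelled in 3 of 4 vehicle libraries. ATF4 passed with a lower share, 22.3, 18.1, 17.2 and 18.4% with tunicamycin, against 33.2, 28.3, 31.0 and 29.1% with vehicle (-0.55 ± 0.087, edgeR adjusted p = 7.97e-07). PPP1R15A did too, with 52.6, 48.0, 49.9 and 45.5% with tunicamycin, against 65.9, 67.6, 67.3 and 70.1% with vehicle (-0.84 ± 0.22, edgeR adjusted p = 0.00529). The groups overlapped for neither gene. HERPUD1 averaged 35.3 ± 5.25% with tunicamycin and 51.3 ± 4.80% with vehicle (SD, n = 4 each) and did not pass (edgeR adjusted p = 0.0784), although all 4 tunicamycin shares were below all 4 vehicle shares. It passed with the replicate block and without centring. TRIB3 had a higher share (35.8, 27.5, 28.7 and 30.2% with tunicamycin, against 23.2, 17.4, 20.1 and 23.2% with vehicle; 0.99 ± 0.19, edgeR adjusted p = 3.82e-05). So had ASNS (9.38, 14.6, 10.7 and 12.2% with tunicamycin, against 4.33, 5.53, 4.10 and 4.19% with vehicle; 1.91 ± 0.21, edgeR adjusted p = 6.99e-13). XBP1 passed with 0.60 ± 0.17 (edgeR adjusted p = 0.0160), with overlapping groups (26.5, 45.6, 39.6 and 47.9% with tunicamycin, against 36.5, 28.6, 38.8 and 45.3% with vehicle). It lost the call in the fit of only the 8 libraries, without centring and when tunicamycin replicate 2 or 4 or vehicle replicate 1, 2 or 3 was left out. Immediate-early genes had 2 of 31 higher and 7 lower (median -0.30), EGR1 among them with 56.9, 67.1, 66.8 and 66.4% with tunicamycin, against 78.5, 77.8, 81.7 and 79.9% with vehicle (-0.72 ± 0.081, edgeR adjusted p = 6.04e-12).

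Read together, total reads and labelled share moved in all 4 combinations. Of the 8980 genes tested for both, 167 were higher in both, 45 were higher in total reads with a lower share, 21 were lower in total reads with a higher share and 15 were lower in both. In addition, 556 of the genes with higher total reads had no call in share. Without tunicamycin replicate 1 the 4 counts were 204, 19, 25 and 18. Labelled reads are a part of the total, so the 2 measures are not independent. The genes with the strongest joint evidence higher in both were HSPA5, GOT1, CRELD2, GFPT1 and DNAJC3, an inhibitor of PERK. GOT1 had shares of 28.3, 24.5, 24.3 and 25.8% with tunicamycin, against 13.0, 12.4, 16.2 and 13.3% with vehicle, and DNAJC3 25.2, 33.3, 33.0 and 33.9% with tunicamycin, against 20.2, 14.1, 19.0 and 19.7% with vehicle. Higher total reads with a lower share led in EGR1, ATF4, SLC3A2, IER3 and IFRD1. SLC3A2, the heavy chain of amino acid exchangers including that of SLC7A11, had 375, 636, 639 and 536 CPM with tunicamycin, against 287, 289.7, 283 and 283 CPM with vehicle. It had shares of 15.6, 17.9, 17.1 and 16.0% with tunicamycin, against 31.4, 29.6, 27.0 and 28.2% with vehicle (-0.66 ± 0.11, edgeR adjusted p = 9.79e-07). IFRD1, whose mRNA is known for a decay pathway that depends on an upstream reading frame, had 33.1, 44.1, 42.4 and 49.3 CPM with tunicamycin, against 27.0, 21.0, 18.8 and 23.8 CPM with vehicle. It had shares of 23.1, 17.9, 33.3 and 25.4% with tunicamycin, against 56.7, 62.9, 56.8 and 64.0% with vehicle (-1.78 ± 0.32, edgeR adjusted p = 1.25e-05). Its labelled reads did not pass (0.0081, edgeR adjusted p = 0.988). Lower total reads with a higher share were led by HSPA1B, CD59, TGOLN2, RNF145 and GEMIN4. CD59 had shares of 11.9, 15.8, 11.9 and 18.3% with tunicamycin, against 8.41, 9.68, 8.75 and 10.3% with vehicle (1.14 ± 0.21, edgeR adjusted p = 1.83e-05). HSPA1B had 33.3, 53.4, 61.2 and 58.3% with tunicamycin, against 25.4, 20.7, 25.5 and 25.9% with vehicle (2.39 ± 0.27, edgeR adjusted p = 2.54e-12), with no overlap for either. TGOLN2 and GEMIN4 lost the share call without centring. Lower in both were MSX1, a homeobox factor, the growth factor receptor FGFR3, SNX22, C16orf74 and RBM47. MSX1 had 312, 248, 275 and 221 CPM with tunicamycin, against 419.9, 417, 448 and 428 CPM with vehicle. It had shares of 6.94, 14.5, 14.4 and 15.6% with tunicamycin, against 27.9, 27.7, 29.3 and 25.5% with vehicle (-0.89 ± 0.13, edgeR adjusted p = 4.66e-08). The total-read call of RBM47 was lost without tunicamycin replicate 1. SLC3A2, IER3, IFRD1, TGOLN2, RNF145, GEMIN4, MSX1, FGFR3, SNX22, C16orf74 and RBM47 did not pass when only the 8 libraries were fitted.

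**Figure D5:**
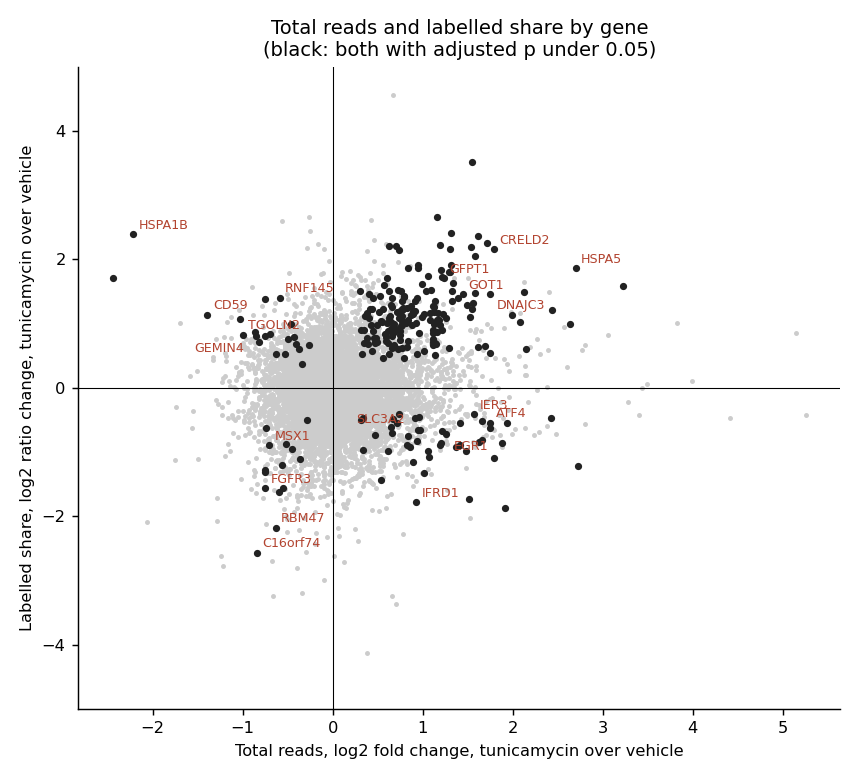
Log2 ratio change of the labelled share (vertical axis) against log2 fold change of total reads (horizontal axis), both tunicamycin over vehicle, for genes tested in both; black points passed in both at an edgeR adjusted p under 0.05 and the named genes are those with the strongest joint evidence in each quadrant. SNX22 and TMEM52 are not drawn because their labelled reads were 0 in the tunicamycin libraries. Black points number 167 at upper right, 45 at lower right, 21 at upper left and, with SNX22 counted, 15 at lower left.

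The tunicamycin effect was then set against those of the 2 comparisons most like it. Against parental cells without auxin, the difference in log2 fold change (with auxin minus without) passed for 1 of 11186 genes in total reads (0.00894%) by edgeR's test. Before adjustment 3202 genes had an edgeR p under 0.05, against 2909 for the tunicamycin effect itself. The 1 gene passing therefore does not measure how widely the responses differed. The next genes by p, CNKSR3 and RCC2, had an edgeR adjusted p of 0.0931. ATF4, described below, shared this value, so the genes ranked between them were tied at it. In labelled reads the difference passed for 1 of 8980 genes (0.0111%). The gene in total reads was ZNF227, a zinc finger protein, with a difference of -3.67 ± 0.64 (SE, edgeR adjusted p = 0.0347). With auxin it averaged 4.04 ± 1.93 CPM with tunicamycin and 7.80 ± 3.44 CPM with vehicle, and without auxin 8.10 ± 5.13 CPM with tunicamycin and 1.05 ± 0.574 CPM with vehicle (SD, n = 4 each). The gene in labelled reads was TRIOBP, an actin-binding protein (-1.34 ± 0.27, edgeR adjusted p = 0.0477), with 264 ± 124 labelled CPM with tunicamycin and 383 ± 65.0 with vehicle in auxin, and 277 ± 57.4 with tunicamycin and 142 ± 38.9 with vehicle without auxin. With tunicamycin replicate 1 left out, 10 genes passed in labelled reads (0.109%), 2 of them with a higher effect with auxin (0.0218%) and 8 with a lower one (0.0872%), TRIOBP and ZNF227 among the lower, and 1 in total reads (0.00888%). Against the tagged line, also with auxin, 0 genes passed in total or labelled reads, with 506 and 383 at an unadjusted p under 0.05. For DDIT3 the difference in total reads was 0.15 ± 0.26 between auxin and no auxin and -0.044 ± 0.26 between lines, and for HSPA5 0.23 ± 0.15 and 0.18 ± 0.15; none of these passed. ATF4 differed by 0.75 ± 0.24 between auxin and no auxin (edgeR adjusted p = 0.0931), which did not pass, and by 0.52 without tunicamycin replicate 1. A difference that does not pass does not show that the responses were alike.

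IGF2BP3, the protein studied in the series, is untagged in these cells. IGF2BP3 (chr7:23310209-23470491) had 235, 161, 164 and 173 CPM with tunicamycin, against 151, 151, 135 and 141 CPM with vehicle in total reads (log2 fold change 0.33 ± 0.11 SE, edgeR adjusted p = 0.0527). The groups did not overlap, tunicamycin replicate 1 was well above its mates, and the gene did not pass; without replicate 1 the log2 fold change was 0.20 ± 0.093, edgeR adjusted p = 0.202. Labelled reads were 534, 359.7, 295 and 314 labelled CPM with tunicamycin, against 271, 250.0, 179 and 285 labelled CPM with vehicle (log2 fold change 0.51 ± 0.17 SE, edgeR adjusted p = 0.0399) and passed with all libraries but not without replicate 1 (0.39, edgeR adjusted p = 0.0931). The labelled share did not pass (21.1 ± 2.56% with tunicamycin and 21.9 ± 3.42% with vehicle, SD, n = 4 each; edgeR adjusted p = 0.366).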

How the data were processed

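SLAM-seq libraries of poly-A RNA were compared for 4 tunicamycin wells and 4 vehicle wells of parental HCT116 cells with auxin. The deposited tables give, for each of 95582 transcript regions, whole-number counts of reads and of T-to-C reads, per the file headers; the build hg38 is named in the submitters' processing notes, and the tool's version, strand setting and conversion threshold are not given in the sources used here. Transcript identifiers were matched to RefSeq symbols, for 40006 of 40767 NM and 6326 of 33066 XM identifiers. A gene was represented by the transcript that had most reads when all libraries were summed, and of 15177 named genes 837 were dropped because their counts were identical to those of another gene, as for overlapping or duplicated regions, which left 14340. Reads in named genes ranged from 987365 to 4223553 per library, and intervals cover counting error only since reads carry no molecular identifiers.

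Counts were tested with edgeR 4.0.16 (R 4.3.3, limma 3.58.1; TMM factors, filterByExpr, robust quasi-likelihood fits), with 1 coefficient for each of the 8 groups of the series and Benjamini-Hochberg adjustment over all genes tested (threshold 0.05). The labelled share was tested as the difference of effect between labelled and other reads, with a term for each library, relative to the typical gene. Differences of effect with and without auxin and between lines were contrasts of the same fits. The SE given with an edgeR log2 value is its absolute size divided by the square root of the F statistic. Percentages of whole libraries were compared by exact permutation tests (scipy 1.17.1). Counts were simulated from a common profile for all libraries, with the same spread for every gene and no outlying library. In these the steps recovered 82% and 100% of genes changed by log2 values of 1 and 2 for total reads (11186 genes). Recovery was 53% and 88% for labelled reads and 19% and 80% for the labelled share (8980 genes each). Of the calls 5.21, 4.08 and 3.88% were false, in the same order of measures. Recovery with a library like tunicamycin replicate 1 was not tested.

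Named genes were the 12 largest rises and 10 largest falls of each measure (passing with and without tunicamycin replicate 1, groups not overlapping, mean of at least 5 CPM), for each list the 3 largest changes and the most abundant member not passing, the 5 genes strongest in each combination of total reads and share, 10 UPR genes and the 3 strongest interactions. Other list members named were chosen after their values were seen, as examples of their list. Some genes that meet these rules are not reported here. The members and the 25 lists were chosen with earlier results of these data known. Replicate numbers were not used to pair the samples in the main fits. The alternatives were DESeq2 1.42.0, other size factors, no filter, a replicate block, the longest region per gene and covered T positions as a covariate. Others were only the compared libraries, other scalings, limma on log2 ratios and leaving out each library. Fits that combined tunicamycin replicate 1 left out with the compared libraries alone or with the T covariate were chosen after seeing the data.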

Additional observations from a re-analysis of the deposited data

Results flagged for a closer look

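Of 186 groups of 4 libraries tested for a value set apart from the rest by Dixon's criterion, 22 were flagged, where chance flags about 1 in 20. Most were tunicamycin replicate 1. Its reads covered 15.1 T positions each, and 9.97% of its reads in named genes fell in its 10 leading genes. Of its counts summed over all transcript regions, 43.5% lay in regions without a matched symbol, against 37.2 to 38.3% in the other compared libraries. Regions of the same gene can count the same read, so this is not a percentage of reads. In total reads it was the low library for DDIT3 (496 CPM) and HSPA1B (3.81 CPM). It was the high library for FICD (131 CPM), SDF2L1 (3891 CPM), TMEM125 (298 CPM), JDP2 (102 CPM) and IGF2BP3 (235 CPM). In labelled reads it was high for SDF2L1 (5503 labelled CPM) and ATF4 (6785 labelled CPM), and in labelled share for HYOU1 (41.4%) and RNASE4 (100%, from 1 read).

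Other libraries were flagged in single genes. Tunicamycin replicate 2 was high for SNX15 in labelled reads (5.58 labelled CPM) and in share (4.44%), its mates being at 0. Tunicamycin replicate 3 was high for C16orf74 (8.05 labelled CPM) and tunicamycin replicate 4 for DLL1 (6.92 labelled CPM). Vehicle replicate 1 was high for HOXC13 in total reads (11.5 CPM) and for MRPL28 in labelled reads (25.7 labelled CPM). Vehicle replicate 2 was high for ADM2 (6.44 CPM) and low for the share of HSPA1B (20.7%).

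The tunicamycin effect differed between parental cells with and without auxin for ZNF227 in total reads (difference in log2 fold change -3.67, edgeR adjusted p = 0.0347) and for TRIOBP in labelled reads (-1.34, edgeR adjusted p = 0.0477). In both genes the vehicle means differed more between the auxin conditions than the tunicamycin means did.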

How the results depend on the processing

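Total-read counts moved from 1169 to 748 without vehicle replicate 1 or vehicle replicate 3, to 1922 without tunicamycin replicate 4 and to 119 in the fit of only the 8 compared libraries, where 51 of 119 named genes lost their call; the cause was not tested. With covered T positions per read as a covariate 1210 genes passed, 708 higher and 502 lower, and the log2 fold changes of MCM5, PES1 and PSMC3 turned to -0.0033, -0.014 and -0.0050 (-0.0039, -0.011 and -0.0074 also without tunicamycin replicate 1). Labelled-read counts ranged from 807 to 1128 when single libraries were left out, and came to 485 with only the 8 libraries and to 1711 when scaled by total reads. Labelled-share counts ranged from 538 to 686 when single libraries were left out and reached 1536 without centring, where RPS27A had -0.34 in place of 0.017. The difference of labelled reads with and without auxin gave 1 gene, against 4 with DESeq2 size factors, 159 without a filter, 8 with the replicate block and 10 without tunicamycin replicate 1; the difference between lines gave 1 without a filter. The library-wide labelled percentage differed by -2.22 to -1.18 points when single libraries were left out and the conversion percentage by -0.271 to -0.241 points, in designs whose smallest exact permutation p is 0.0571. The DESeq2 Wald test called 1699 genes in total and 1100 in labelled reads, and limma on log2 ratios called 650 shares.

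Deviations of same-numbered libraries from their group means had correlations of -0.132, -0.080, 0.104 and -0.401. Each group mean includes the library itself, and that of the tunicamycin group includes the outlying replicate 1. The correlations therefore cannot show whether equal numbers share a plate or a day. The replicate block is a pairing by number that the labels do not state. With the block 1064, 991 and 697 genes passed in total reads, labelled reads and share, and the library-wide differences were -1.86 and -0.255 points (exact permutation p = 0.125, the smallest for 4 pairs). Tunicamycin replicate 1 had the fewest reads, and how far depth limits its values was not tested.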

Other observations

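Several of the strongest rises in new RNA lay outside the gene lists. RNASE4, a secreted ribonuclease, had 13.4, 41.8, 29.5 and 50.8 labelled CPM with tunicamycin, against 1.71, 2.72, 1.88 and 0 labelled CPM with vehicle (log2 fold change 4.38 ± 0.66 SE, edgeR adjusted p = 2.07e-07), and its groups did not overlap. Its labelled shares were 100, 28.8, 28.9 and 37.3% with tunicamycin, against 5.56, 7.69, 9.09 and 0% with vehicle, of which the first came from a single read. HID1, a peripheral membrane protein of the Golgi, had 40.1, 75.3, 61.7 and 55.4 labelled CPM with tunicamycin, against 10.3, 2.72, 3.76 and 4.35 labelled CPM with vehicle (log2 fold change 3.38 ± 0.50 SE, edgeR adjusted p = 1.58e-07), also without overlap. NUCB1, a calcium-binding protein of the Golgi lumen that is known to act on ATF6 cleavage, had shares of 9.40, 13.2, 12.4 and 9.26% with tunicamycin, against 5.98, 0, 4.88 and 2.18% with vehicle (log2 ratio change 2.19 ± 0.33, edgeR adjusted p = 2.16e-07), and SMIM14, a small membrane protein of the ER, had 15.0, 27.1, 19.7 and 21.4% with tunicamycin, against 6.25, 14.0, 6.87 and 2.46% with vehicle (2.22 ± 0.36, edgeR adjusted p = 8.77e-07). The largest rises were picked from genes whose groups did not overlap in that measure, so for them the lack of overlap was fixed by the choice.

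In total reads ADM2, a secreted peptide hormone, had 59.8, 28.9, 34.1 and 24.8 CPM with tunicamycin, against 3.60, 6.44, 3.55 and 3.32 CPM with vehicle (log2 fold change 3.05 ± 0.33 SE, edgeR adjusted p = 4.60e-08). TMEM125 had 298, 60.8, 62.1 and 46.5 CPM with tunicamycin, against 14.2, 18.3, 12.7 and 15.8 CPM with vehicle (log2 fold change 2.80 ± 0.38 SE, edgeR adjusted p = 4.49e-06), with tunicamycin replicate 1 far above its mates and a log2 fold change of 1.90 ± 0.18, edgeR adjusted p = 5.58e-11 without it; it did not pass in the fit of only the 8 compared libraries (edgeR adjusted p = 0.0708). JDP2, a transcription factor of the AP-1 family, had 102, 24.6, 36.3 and 30.3 CPM with tunicamycin, against 3.15, 7.80, 8.62 and 5.54 CPM with vehicle (log2 fold change 2.80 ± 0.35 SE, edgeR adjusted p = 8.92e-07), and 2.30 ± 0.26, edgeR adjusted p = 6.26e-09 without tunicamycin replicate 1. LURAP1L and CCNP rose in labelled reads by 4.30 ± 0.69 and 3.70 ± 0.56 (edgeR adjusted p = 1.04e-06 and 2.47e-07). Among labelled reads that fell, SNX15, a sorting nexin, had 0, 5.58, 0 and 0 labelled CPM with tunicamycin, against 25.7, 27.2, 18.8 and 15.2 labelled CPM with vehicle (log2 fold change -3.53 ± 0.88 SE, edgeR adjusted p = 0.00288).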
